A study of Mus musculus with 9 samples.

Results

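Glycolysis and the hypoxia response were followed through 34 gene symbols. They comprised 3 subunits of the hypoxia-inducible factors (HIFs), 2 HIF prolyl hydroxylases, 2 transporters, 15 glycolytic enzymes, 3 regulatory enzymes and 9 other HIF targets, chosen by symbol for their known function. The symbols matched 35 of the 31232 rows of the deposited table, because Aldoa stands on 2 rows. Of these 35 rows, 34 had enough counts to be tested and Car9, with 0 to 10 counts per library, did not, and counts of members below are over these 34 rows. The cells were bEnd.3, a mouse endothelial line from brain made immortal with polyomavirus middle T, grown on glass coverslips and exposed to flow in a parallel-plate chamber. Vortex cells received swirling flow at 0.5 to 2 dyne/cm2, which the submitters set as a model of the late, enlarged intracranial aneurysm. For HSS, flow was laminar at 20 dyne/cm2 as a model of the early aneurysm, and PSS, laminar at 10 dyne/cm2, stood for the normal shear of brain vessels. Each group had 3 libraries of polyadenylated RNA, all from this 1 cell line, and the labels do not say whether replicates were separate cultures or how long flow lasted. The p-values below therefore measure the spread between these libraries, which may be technical.

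Glycolysis splits glucose into pyruvate, and lactate dehydrogenase turns pyruvate into lactate that leaves the cell with protons. Endothelial cells are known to draw much of their ATP from this pathway even when oxygen is plentiful. HIF is a pair of an oxygen-labile alpha subunit and the stable subunit Arnt. With oxygen present, prolyl hydroxylases of the Egln family mark the alpha subunit for degradation, and when oxygen is low the pair binds DNA at the core letters ACGTG or GCGTG and raises transcription of glycolytic enzymes and other targets. The alpha subunits are controlled mostly as proteins, so the transcript levels given here do not measure HIF activity.

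Counts per library ranged from 17407217 to 22965802. Levels are the authors' deposited FPKM, a count scaled to gene length and library total, and fold changes are from edgeR's quasi-likelihood model on the counts of all 9 libraries after TMM scaling. A gene was called at an edgeR p under 0.05 after Benjamini-Hochberg adjustment across the 15774 genes tested. Vortex replicate 2 stood apart. Its log2 CPM correlated with those of Vortex replicates 1 and 3 at 0.852 and 0.916 across genes, against 0.962 between replicates 1 and 3, 0.992 to 0.993 between HSS libraries and 0.977 to 0.992 between PSS libraries, and genes are not independent replicates. It had 30567 counts of the endothelial junction gene Pecam1, where the other 8 libraries had 23 to 1116. Its deviation from PSS also followed GC content, with a median log2 difference of -1.41 for the most GC-poor eighth of genes and 0.90 for the most GC-rich eighth. The 10 endothelial markers summed to 162, 1210 and 232 FPKM in Vortex replicates 1, 2 and 3, to 103 to 104 in HSS and to 393 to 521 in PSS. In HSS, Cldn5 and Erg were at 0 to 0.208 FPKM and Pecam1, Kdr, Vwf and Tek at 0.178 to 1.43, so these markers were close to absent there. Cdh5 kept 29 to 30.5 FPKM in HSS, against 109 to 146 in PSS, and Tie1 kept 42 to 43.2, against 65.3 to 101. Egfl7 had 2.06 to 2.73 FPKM in HSS against 22.8 to 39 in PSS. Flt1, at 24.9 to 25.6 FPKM in HSS, lay above PSS (13.4 to 20.4). The leukocyte markers, 7 of 8 present in the table, summed to 8.54 to 37.5 FPKM in Vortex, 7.9 to 8.41 in HSS and 4.38 to 5.29 in PSS, with Ptprc at 0 to 0.00293 throughout. Most of each sum was Cd68, at 24, 5.78 and 28.2 FPKM in Vortex, 4.28 to 4.63 in HSS and 2.99 to 4.21 in PSS. Of the 10 endothelial markers, Cldn5 had 0.526, 240 and 2.09 FPKM in Vortex replicates 1, 2 and 3 and 37.7 to 44 in PSS. Erg had 0.331, 26 and 4.78 FPKM in these Vortex libraries and 18.6 to 20.5 in PSS. Both were thus below PSS in Vortex replicates 1 and 3 and above it in replicate 2. So were Kdr (9.49, 75.3 and 11.7 FPKM in Vortex), Egfl7 (1.58, 50.6 and 7.04) and Tie1 (40.5, 208 and 59). Vwf (3.67, 51.4 and 10.9) and Tek (1.37, 32.7 and 7.5) were also below PSS in replicates 1 and 3. In replicate 2, however, Vwf was within the PSS range and Tek below it. Pecam1 had 0.258, 214 and 8.56 FPKM in Vortex and 2.11 to 2.37 in PSS. Cdh5, with 71.1, 282 and 87.8 FPKM in Vortex, also lay on both sides of PSS, and Flt1, at 30.2 to 32.9 FPKM in Vortex, lay above PSS. Smooth muscle markers summed to 9.73 to 35 FPKM in Vortex, 8.31 to 8.53 in HSS and 10.8 to 15.8 in PSS. Nearly all of this was Smtn, at 9.11 to 34.5, 7.69 to 8.02 and 10 to 15 FPKM, whereas Acta2, Tagln, Myh11 and Cnn1 were at or under 0.636 FPKM in every library. Pericyte markers summed to 1.42 to 12.3, 7.17 to 7.66 and 3.58 to 4.82 FPKM in the same order of groups, and fibroblast markers to 6.83 to 66.1, 46.1 to 47.9 and 38.2 to 51.2 FPKM. Most of the pericyte sums was Pdgfrb, and most of the fibroblast sums was Col1a1 and Pdgfra. For epithelial markers the sums were 2.94 to 12.8, 2.43 to 3.06 and 4.49 to 4.66 FPKM, mostly Krt18 and with Epcam and Cdh1 at 0 in PSS. For astrocyte and neuron markers they were 0.774 to 1.14, 0.53 to 0.579 and 1.97 to 2.65 FPKM. The part of any of these differences in the results below was not tested. In bulk RNA, fewer cells expressing a gene and less RNA per cell cannot be told apart. Calls and counts that change when Vortex replicate 2 is left out are given both ways, and single genes of the further lists are given with all libraries.

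Promoters are shown for 5 genes that rose in at least 1 comparison, 4 of which hold the HIF core letters and 1 of which does not. Each line gives the 250 bases before the transcript start from RefSeq on build GRCm38.p6, 5′ to 3′ on the strand of the gene, with matches to ACGTG or GCGTG on either strand in capitals.
P4ha2, chr11:54100674-54100923, + strand: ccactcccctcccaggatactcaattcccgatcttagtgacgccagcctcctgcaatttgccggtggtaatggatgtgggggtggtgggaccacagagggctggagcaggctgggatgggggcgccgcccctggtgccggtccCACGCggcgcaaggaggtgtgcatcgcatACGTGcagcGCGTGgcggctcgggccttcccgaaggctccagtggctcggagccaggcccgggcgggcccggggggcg
Slc16a3, chr11:120948817-120949066, + strand: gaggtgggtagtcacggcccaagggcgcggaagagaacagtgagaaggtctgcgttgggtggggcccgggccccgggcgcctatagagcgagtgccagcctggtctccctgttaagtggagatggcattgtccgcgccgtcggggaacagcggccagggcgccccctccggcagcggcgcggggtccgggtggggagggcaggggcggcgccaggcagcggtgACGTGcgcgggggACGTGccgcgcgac
Pfkp, chr13:6648772-6649021, - strand: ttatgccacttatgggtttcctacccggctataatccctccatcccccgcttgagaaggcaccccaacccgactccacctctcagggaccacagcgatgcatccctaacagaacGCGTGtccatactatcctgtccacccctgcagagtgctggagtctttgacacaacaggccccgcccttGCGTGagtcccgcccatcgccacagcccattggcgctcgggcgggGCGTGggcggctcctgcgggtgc
Hk2, chr6:82774455-82774704, - strand: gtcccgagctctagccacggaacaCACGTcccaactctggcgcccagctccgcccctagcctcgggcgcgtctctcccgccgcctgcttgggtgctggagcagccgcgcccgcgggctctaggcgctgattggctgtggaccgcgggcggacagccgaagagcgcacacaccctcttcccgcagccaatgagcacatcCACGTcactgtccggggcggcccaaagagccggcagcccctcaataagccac
Gpi1, chr7:34230337-34230586, - strand: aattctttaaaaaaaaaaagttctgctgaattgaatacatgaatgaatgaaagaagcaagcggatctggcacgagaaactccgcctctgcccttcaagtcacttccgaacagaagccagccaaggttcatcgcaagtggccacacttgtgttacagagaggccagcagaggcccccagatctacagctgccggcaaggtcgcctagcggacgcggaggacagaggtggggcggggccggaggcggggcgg
P4ha2 and Pfkp held 3 matches each, Slc16a3 and Hk2 held 2 each, and Gpi1 held 0. Over all 31 members with an entry in the RefSeq table, 29 had at least 1 match in a window and 18 had at least 2 in the same window. Of all 27018 genes in that table, 41.5% had at least 1 match and 18.7% had at least 2. The palindrome CACGTG, which holds ACGTG on both strands, counts as 2 overlapping matches, and 11 of the members have several start sites in the table. A match is a description of letters and not a measured binding site.

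HSS against PSS addresses a stronger laminar shear, as at a vessel bifurcation. Some glycolytic enzymes and a lactate exporter were higher in HSS. The 6 genes that rose were the hexokinase Hk2, the phosphofructokinase Pfkp, the enolase Eno1, the pyruvate kinase Pkm, the lactate exporter Slc16a3 and the collagen prolyl hydroxylase P4ha2. They were 6 of 34 tested members, against 7.87% of all tested genes called (4.18% higher and 3.7% lower), and 0 members fell. At an unadjusted p under 0.05 there were 16 members, beside 3693 of all 15774 tested genes. The DESeq2 Wald test called 12 members higher and 1 lower, beside 1247 higher and 1209 lower of 15695 genes. The median log2 fold change of the members was 0.49, where that of all tested genes was 0.00. FPKM of the 3 HSS libraries lay above all 3 PSS libraries for 19 members and below them for 4, against 27.5% above and 28.4% below among all tested genes, or 55.9% in either direction. All groups share 1 estimate of spread, so Vortex replicate 2 bears on this comparison too. Without it 16 members were higher and 1 lower, and 29.1% of all tested genes were called (15.4% higher and 13.7% lower). The count fell to 1 without PSS replicate 1 or 2 or any 1 HSS library, and that gene was P4ha2. The count was 4 without PSS replicate 3, 10 without Vortex replicate 1 (9 higher and 1 lower) and 5 without Vortex replicate 3. A fit of the 6 HSS and PSS libraries alone called 19 of 33 tested members higher and 3 lower, Epas1, Aldoc and Mxi1. Of the 15277 genes tested in that fit, 3110 were higher and 3123 lower. With the GC trend removed, the calls of Hk2, Slc16a3 and Eno1 ended (adjusted p = 0.0578, 0.0763 and 0.063), Ldha was called higher (0.0283) and Epas1 lower (-1.48, adjusted p = 0.0197).

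Vortex against PSS addresses weak, disturbed flow. Some enzymes between the hexokinases and lactate dehydrogenase were higher in Vortex, whereas Gapdh, Pgk1 and Pgam1 in the middle of the pathway were not called. The 11 genes that rose were Hk1, Hk2, Gpi1, Pfkp, Aldoa, Tpi1, Eno1, Pkm and Ldha of glycolysis, and the HIF targets Ndrg1 and P4ha2. That is 11 of 34 members, against 13.4% of all tested genes called (8.33% higher and 5.03% lower), with 0 members lower. There were 17 at an unadjusted p under 0.05, beside 4706 of all 15774 tested genes. DESeq2 called 13 members higher and 0 lower, beside 2023 higher and 1466 lower of 15695 genes. The members' median log2 fold change was 0.64, where that of all tested genes was 0.11. With libraries scaled by their totals in place of TMM the median of all genes was -0.06, the members' median was 0.47 and 7 members were called. FPKM ranges lay above PSS for 10 members and below for 0, against 10.6% and 19.5% of all tested genes. Of the tested members 25 had a GC content above the median of tested genes, and with the GC trend of each library removed 5 were called, Hk1, Gpi1, Pfkp, Ndrg1 and P4ha2. A fit of the 6 Vortex and PSS libraries alone called 0 members, with 14 at an unadjusted p under 0.05. Of the 15149 genes tested in that fit, 74 were called and 3102 had an unadjusted p under 0.05. Without Vortex replicate 2 there were 20 higher and 0 lower, beside 36.3% of all tested genes called (19.7% higher and 16.6% lower). The count was 3, 5 and 10 without PSS replicates 1, 2 and 3, 6 without any 1 HSS library, 11 without Vortex replicate 1 and 6 without Vortex replicate 3.

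In Vortex against HSS with all libraries, the share of members called was near that of all genes. Epas1, an alpha subunit of HIF, and Gpi1, the isomerase of the second glycolytic step, were higher in Vortex. They were 2 of 34 members, or 5.88%, against 7.04% of all tested genes called (4.37% higher), and 0 members were lower. At an unadjusted p under 0.05 there were 5, beside 4236 of all 15774 tested genes, which is a larger share. DESeq2 called 4 members higher and 0 lower, beside 1706 higher and 994 lower of 15695 genes. The members' median log2 fold change was 0.05, where that of all tested genes was 0.10. In the fit without Vortex replicate 2, 9 members were higher and 0 lower, or 26.5%, beside 23.9% of all tested genes called (13.9% higher and 10% lower). The members' median there was 0.31, where that of all tested genes was 0.03. The 6 Vortex and HSS libraries alone gave 0 calls among the members, with 5 at an unadjusted p under 0.05. Of the 15063 genes tested in that fit, 47 were higher, 19 lower and 3289 at an unadjusted p under 0.05. No member was called without PSS replicate 1 or 2 or any 1 HSS library. The count was 1 without PSS replicate 3, 3 without Vortex replicate 1 and 1, Slc16a3 on the lower side, without Vortex replicate 3.

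**Figure D1:**
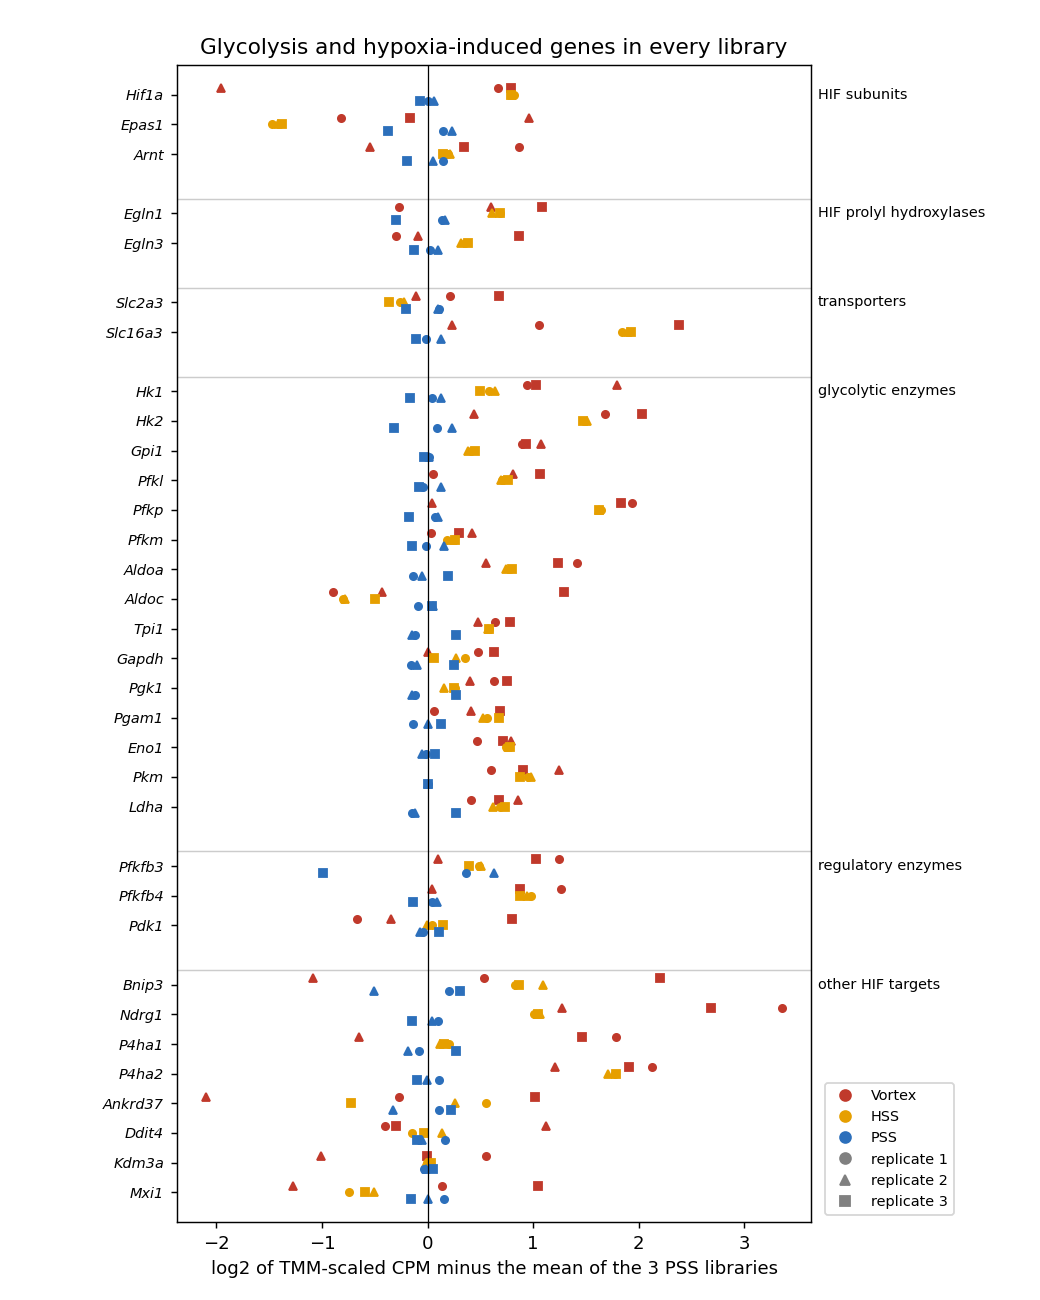
Each point is 1 library, as the log2 of its TMM-scaled CPM minus the mean of the 3 PSS libraries, for the tested genes in order of their role, with Vortex in red, HSS in orange and PSS in blue. HSS points cluster tightly, and the triangles of Vortex replicate 2 lie far to the left of the other Vortex libraries for Hif1a, Pfkp, Bnip3 and P4ha1, among others.

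The transcripts of the HIF alpha subunits lay on opposite sides of PSS in HSS. Hif1a, the broadly expressed alpha subunit that drives glycolytic genes, had 97.4, 15.8 and 113 FPKM in Vortex replicates 1, 2 and 3, 121, 120 and 119 FPKM in HSS and 71.9, 75.1 and 65.1 FPKM in PSS. All HSS libraries and Vortex replicates 1 and 3 lay above PSS, and Vortex replicate 2 lay far below it. Hif1a was not called in any comparison with all libraries (log2 fold change 0.80 ± 0.53 (SE) for HSS against PSS, adjusted p = 0.419, and 0.25 ± 0.53 for Vortex against PSS, adjusted p = 0.792). Without Vortex replicate 2 it was higher in HSS (0.80 ± 0.10, adjusted p = 0.000309) and in Vortex (0.73 ± 0.11, adjusted p = 0.00095) than in PSS.

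Epas1 encodes HIF-2alpha, the alpha subunit that is prominent in endothelium. Its levels were 14.4, 49.7 and 24 FPKM in Vortex, 10.3, 10.7 and 11 FPKM in HSS and 32.7, 34.9 and 21.9 FPKM in PSS. HSS lay below both other groups with no overlap, whereas Vortex straddled PSS. The log2 fold change of HSS against PSS was -1.44 ± 0.40 (adjusted p = 0.0619) with all libraries and -1.45 ± 0.20 (adjusted p = 0.000445) without Vortex replicate 2. Vortex against HSS was called at 1.60 ± 0.40 (adjusted p = 0.0469) and, without Vortex replicate 2, at 0.97 ± 0.21 (adjusted p = 0.0112). This Epas1 call ended without PSS replicate 1, 2 or 3 (0.0913, 0.077 and 0.0649), HSS replicate 1, 2 or 3 (0.183, 0.17 and 0.176) or Vortex replicate 3 (0.0593). Against PSS, Vortex stood at 0.16 ± 0.39 (adjusted p = 0.826).

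Epas1 made up 12.9%, 75.9% and 17.6% of the summed FPKM of Hif1a and Epas1 in Vortex replicates 1, 2 and 3, 7.8%, 8.2% and 8.41% in HSS and 31.2%, 31.7% and 25.1% in PSS. Every HSS library and Vortex replicates 1 and 3 thus had a smaller Epas1 share than every PSS library, and Vortex replicate 2 alone had more Epas1 than Hif1a. The mean share was 8.14% ± 0.311 in HSS and 29.4% ± 3.67 in PSS (SD, n = 3 each), with an exact two-sided permutation p of 0.1, the smallest that 3 libraries against 3 can give. For Vortex the share averaged 35.4% ± 35.1 (n = 3, exact permutation p = 1 against PSS).

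Arnt, the stable partner of both alpha subunits, ranged from 6.4 to 16.8 FPKM in Vortex, from 11.5 to 12.1 in HSS and from 9.03 to 11.9 in PSS. Of the oxygen sensors, Egln1, the main HIF prolyl hydroxylase in most cells, spanned 6.54 to 17.8 FPKM in Vortex, 13.6 to 14.3 in HSS and 7.15 to 10.4 in PSS. Egln3, a hydroxylase whose own gene is a HIF target, spanned 60.6 to 144, 104 to 109 and 76.1 to 93.5 FPKM in the same groups. HSS stood above PSS without overlap for both hydroxylases, but neither was called with all libraries (log2 fold change 0.65 ± 0.31 for Egln1 and 0.35 ± 0.28 for Egln3, adjusted p = 0.25 and 0.52). The edgeR fit of the 6 HSS and PSS libraries alone called both higher (adjusted p = 0.00679 and 0.0216). Egln1 passed for Vortex against PSS without Vortex replicate 1 (0.81, adjusted p = 0.0381). Arnt was not called with all libraries, and without Vortex replicate 2 it was higher in Vortex than in PSS (0.62 ± 0.17, adjusted p = 0.0157).

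**Figure D2:**
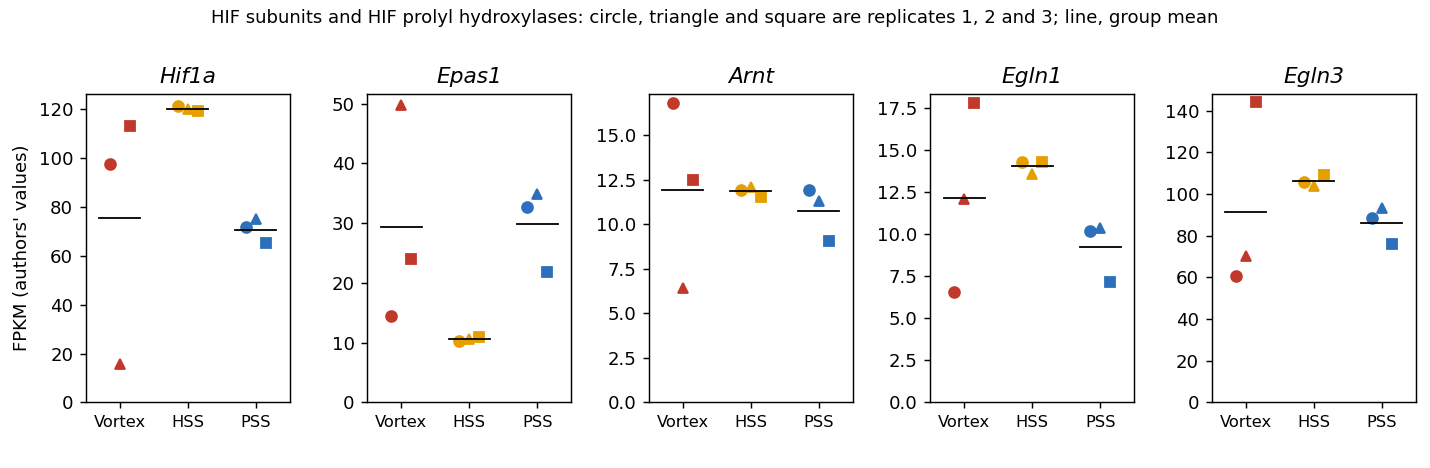
Deposited FPKM of the 3 HIF subunits and the 2 HIF prolyl hydroxylases in each library of Vortex, HSS and PSS, with replicates 1, 2 and 3 as circle, triangle and square and the group mean as a line. Hif1a and Epas1 lie on opposite sides of PSS in HSS, and Vortex replicate 2 has the lowest Hif1a (15.8 FPKM) and the highest Epas1 (49.7 FPKM) of the 9 libraries.

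Among the transporters, Slc16a3 encodes the monocarboxylate transporter that exports lactate from glycolytic cells. It had 19.8, 11.3 and 52.8 FPKM in Vortex, 38.4, 40 and 40.7 FPKM in HSS and 11, 12.2 and 9.84 FPKM in PSS. HSS was above PSS in every library, while Vortex replicate 2 lay within the PSS range and replicate 3 was the highest of all. The rise in HSS was 3.71-fold (log2 fold change 1.89 ± 0.45, adjusted p = 0.0377). For Vortex against PSS, Slc16a3 was at 1.49 ± 0.45 (adjusted p = 0.0574), and at 1.86 ± 0.29 without Vortex replicate 2 (adjusted p = 0.000978). The HSS call of Slc16a3 ended without PSS replicate 1, 2 or 3 (adjusted p = 0.145, 0.111 and 0.149) or HSS replicate 1, 2 or 3 (0.115, 0.118 and 0.124). Slc2a3, a glucose transporter of high affinity, was low at 2.88 to 5.61 FPKM over all 9 libraries and was not called with all libraries, and it was higher in Vortex than in HSS without Vortex replicate 2 (0.75 ± 0.18, adjusted p = 0.0139).

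Hexokinases trap glucose in the cell by phosphorylation. Hk2, the inducible form, had 69.5, 29.7 and 93.8 FPKM in Vortex, 67.7, 69.5 and 67.6 FPKM in HSS and 27, 29.6 and 19.4 FPKM in PSS. Hk1, the constitutive form, had 30.1, 54.6 and 34 FPKM in Vortex, 26.3, 27.4 and 24.8 FPKM in HSS and 18.8, 20 and 15.6 FPKM in PSS. Hk2 was thus clearly above PSS in HSS and in Vortex replicates 1 and 3, but only just above it in Vortex replicate 2, which had the highest Hk1. Hk2 rose 2.77-fold in HSS (log2 fold change 1.47 ± 0.35, adjusted p = 0.0364) and 2.85-fold in Vortex (1.51 ± 0.35, adjusted p = 0.0239). Hk1 rose in Vortex (1.30 ± 0.24, adjusted p = 0.0105), and in HSS it stood at 0.57 ± 0.24 (adjusted p = 0.189, and 0.00478 without Vortex replicate 2). Against HSS, Hk1 in Vortex stood at 0.74 ± 0.24 (adjusted p = 0.0896, 0.0376 without Vortex replicate 1 and 0.0396 without Vortex replicate 2). Among these calls, that of Hk2 in HSS ended without PSS replicate 1, 2 or 3 (adjusted p = 0.131, 0.0928 and 0.145) or HSS replicate 1, 2 or 3 (0.119, 0.121 and 0.12). The Hk2 call in Vortex ended without PSS replicate 1, 2 or 3 (0.0921, 0.0673 and 0.097), HSS replicate 1, 2 or 3 (0.0509, 0.0508 and 0.0506) or Vortex replicate 3 (0.0646), and that of Hk1 without PSS replicate 1 (0.0563). With the GC trend removed, Hk2 was not called in Vortex against PSS either.

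Gpi1, the isomerase that makes fructose 6-phosphate, differed little between the Vortex libraries. Its levels were 78, 88.6 and 85 FPKM in Vortex, 62.5, 61.7 and 64.5 FPKM in HSS and 49.5, 49.8 and 45.9 FPKM in PSS. The 3 groups did not overlap, with Vortex highest and PSS lowest. Gpi1 rose in Vortex against PSS (log2 fold change 0.97 ± 0.14, adjusted p = 0.00504) and against HSS (0.55 ± 0.14, adjusted p = 0.0473). Between HSS and PSS it stood at 0.41 ± 0.14 (adjusted p = 0.107, and 0.0112 without Vortex replicate 2). The Gpi1 call against HSS ended without PSS replicate 1 or 2 (0.105 and 0.0779), HSS replicate 1, 2 or 3 (0.205, 0.197 and 0.194) or Vortex replicate 3 (0.0718), and with libraries scaled by their totals (0.109). Against PSS it held without each single library.

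Phosphofructokinase commits sugar to glycolysis and is built from 3 isozymes. Pfkp, the platelet type, had 15.2, 4.12 and 15.1 FPKM in Vortex, 13.9, 13.8 and 13.9 FPKM in HSS and 4.89, 4.99 and 3.94 FPKM in PSS. Pfkl, the liver type, had 13.8, 23.4 and 29.4 FPKM in Vortex, 24.2, 24.1 and 25.2 FPKM in HSS and 15, 16.9 and 14 FPKM in PSS. Pfkm, the muscle type, was the most abundant per length, with 38.7, 51.2 and 49.5 FPKM in Vortex, 48.3, 50.2 and 51 FPKM in HSS and 43.8, 49.4 and 38.3 FPKM in PSS. Counts, which are not scaled to length, put Pfkp first in HSS, with 3880, 3208 and 3454 against 3349, 2921 and 3169 for Pfkm. The order of the isozymes thus depends on the gene lengths used for the FPKM. Pfkp was far above PSS in HSS and in Vortex replicates 1 and 3, and stayed within the PSS range in Vortex replicate 2, whereas Pfkm overlapped between HSS and PSS and between Vortex and both. Pfkp rose in HSS (log2 fold change 1.62 ± 0.41, adjusted p = 0.044) and in Vortex (1.48 ± 0.41, adjusted p = 0.0436). Pfkl was at 0.71 ± 0.24 in HSS (adjusted p = 0.112, and 0.03 without Vortex replicate 2) and 0.70 ± 0.24 in Vortex (adjusted p = 0.0885, and 0.0129 without Vortex replicate 1). Without Vortex replicate 2 the log2 fold change of Pfkp was 1.62 ± 0.12 for HSS and 1.88 ± 0.12 for Vortex. Its HSS call ended without PSS replicate 1, 2 or 3 (0.149, 0.122 and 0.167), HSS replicate 1, 2 or 3 (0.137, 0.133 and 0.138) or Vortex replicate 3 (0.058). Its Vortex call ended without PSS replicate 1, 2 or 3 (0.134, 0.117 and 0.145), HSS replicate 1, 2 or 3 (0.0805, 0.0799 and 0.0795) or Vortex replicate 1 or 3 (0.0861 and 0.114).

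Aldolase cleaves the sugar, and Tpi1 interconverts the products. Aldoa, the main aldolase of most tissues, had 349, 193 and 329 FPKM in Vortex, 253, 247 and 256 FPKM in HSS and 139, 148 and 167 FPKM in PSS. It was above PSS in all 6 other libraries. Aldoa rose in Vortex (log2 fold change 1.11 ± 0.22, adjusted p = 0.0139) and stood at 0.77 ± 0.22 in HSS (adjusted p = 0.0714, and 0.00109 without Vortex replicate 2). Its Vortex call ended without PSS replicate 1 or 2 (0.0778 and 0.0606) and was also lost after taking out the GC trend (0.19). Against HSS, Aldoa in Vortex was at 0.34 ± 0.22 (adjusted p = 0.366), and at 0.55 ± 0.13 without Vortex replicate 2 (adjusted p = 0.0155). Aldoc, the brain type, was far less abundant per length, at 1.05, 1.47 and 5.09 FPKM in Vortex, 1.27, 1.29 and 1.56 FPKM in HSS and 2.15, 2.38 and 2.26 FPKM in PSS. HSS lay below PSS for Aldoc without a call with all libraries (-0.69 ± 0.50, adjusted p = 0.466), and the Vortex libraries lay on both sides of PSS. The edgeR fit of the 6 HSS and PSS libraries alone called Aldoc lower in HSS (-0.72, adjusted p = 0.00671). The other row under the symbol Aldoa (ENSMUSG00000114515) had 3 to 21 counts per library and was not called.

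Tpi1 had the highest mean FPKM of the 35 rows in each group, with 471, 424 and 553 FPKM in Vortex, 510, 508 and 510 FPKM in HSS and 324, 321 and 406 FPKM in PSS. All 6 Vortex and HSS libraries lay above PSS. Tpi1 rose in Vortex (log2 fold change 0.63 ± 0.16, adjusted p = 0.0374) and stood at 0.57 ± 0.16 in HSS (adjusted p = 0.0697). Without Vortex replicate 2 its adjusted p was 0.00507 in Vortex and 0.0103 in HSS. The Vortex call of Tpi1 ended without PSS replicate 1 or 2 (0.16 and 0.126), HSS replicate 1, 2 or 3 (0.0828, 0.0836 and 0.0834) or Vortex replicate 1 or 3 (0.0671 and 0.112). After removal of the GC trend Tpi1 was at 0.37 (adjusted p = 0.319).

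In the lower pathway, where ATP is made, the calls fell on the later enzymes. Eno1, the ubiquitous enolase, had 113, 142 and 143 FPKM in Vortex, 153, 156 and 158 FPKM in HSS and 94.3, 91.9 and 95.7 FPKM in PSS. Pkm, the pyruvate kinase of most tissues, had 311, 490 and 410 FPKM in Vortex, 446, 458 and 424 FPKM in HSS and 239, 241 and 230 FPKM in PSS. Ldha, the lactate dehydrogenase subunit that favours lactate formation, had 203, 278 and 260 FPKM in Vortex, 275, 264 and 284 FPKM in HSS and 161, 164 and 205 FPKM in PSS. Eno1 and Pkm were above PSS in every Vortex and HSS library, Vortex replicate 2 included, and Ldha was above PSS in all but Vortex replicate 1. Eno1 rose in HSS (log2 fold change 0.76 ± 0.15, adjusted p = 0.0166) and in Vortex (0.66 ± 0.15, adjusted p = 0.0202). Pkm rose by 0.94 ± 0.18 in HSS (adjusted p = 0.0149) and by the same log2 fold change, 0.94 ± 0.18, in Vortex (adjusted p = 0.0109). Ldha rose in Vortex (0.65 ± 0.18, adjusted p = 0.0433) and was at 0.67 ± 0.18 in HSS (adjusted p = 0.054).

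Several of these calls depended on single libraries. In HSS that of Eno1 ended without PSS replicate 1 or 2 (adjusted p = 0.0978 and 0.0714) or HSS replicate 1, 2 or 3 (0.0873, 0.0922 and 0.098). That of Pkm ended without PSS replicate 1, 2 or 3 (0.0841, 0.0618 and 0.0539) or HSS replicate 1, 2 or 3 (0.0778, 0.0804 and 0.0694). Ldha, by contrast, passed in HSS without PSS replicate 3 (0.0491), Vortex replicate 1 (0.0379) or Vortex replicate 2 (0.006). In Vortex, Pkm ended without PSS replicate 1 (0.0618). There, Eno1 ended without PSS replicate 1 or 2 (0.103 and 0.0783), HSS replicate 1, 2 or 3 (0.0559, 0.057 and 0.0572) or Vortex replicate 3 (0.0586), and with the GC trend removed it was at 0.23 (adjusted p = 0.429). Ldha ended in Vortex without PSS replicate 1 or 2 (0.177 and 0.142), HSS replicate 1, 2 or 3 (0.0919, 0.0916 and 0.0928) or Vortex replicate 3 (0.105). Neither Pkm nor Ldha was called in Vortex against PSS with the GC trend removed.

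Reads of Eno1 can be shared with its near copy Eno1b, which had 88.5 to 114 FPKM in Vortex, 125 to 139 in HSS and 68 to 78.4 in PSS and rose like Eno1 in HSS (0.86 ± 0.17, adjusted p = 0.0169) and Vortex (0.63 ± 0.17, adjusted p = 0.0382). The sources used here do not say how reads were divided between the pair, so both values are uncertain. The same holds for genes with many processed pseudogenes, such as Gapdh, Pgk1 and Tpi1. Of the 7 near copies looked up, Ldhal6b had no row under that symbol. Gapdhs was at 1.51 ± 1.06 in HSS and 2.61 ± 1.03 in Vortex against PSS (adjusted p = 0.445 and 0.125). Those other than Eno1b and Gapdhs that had a row held too few counts to be tested.

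Gapdh, often used as a reference gene, ranged from 121 to 197 FPKM in Vortex, 141 to 172 in HSS and 126 to 160 in PSS and was not called (log2 fold change 0.22 ± 0.20 in HSS and 0.38 ± 0.20 in Vortex against PSS, adjusted p = 0.592 and 0.246). It was higher in Vortex without Vortex replicate 2 (0.54 ± 0.16, adjusted p = 0.022). Pgk1, the first kinase to form ATP, ranged from 295 to 399 FPKM in Vortex, 279 to 298 in HSS and 236 to 299 in PSS. It was at 0.59 ± 0.17 in Vortex (adjusted p = 0.0529), with calls when PSS replicate 3 (0.0358) or Vortex replicate 2 (0.0059) was left out. Against HSS, Pgk1 in Vortex was at 0.38 ± 0.17 (adjusted p = 0.191), and at 0.47 ± 0.15 without Vortex replicate 2 (adjusted p = 0.0427). Pgam1, the phosphoglycerate mutase, spanned 149 to 246, 232 to 256 and 153 to 175 FPKM in Vortex, HSS and PSS. It passed in HSS only in part of the alternatives, among them the fit without Vortex replicate 2 (0.58 ± 0.16, adjusted p = 0.0225).

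**Figure D3:**
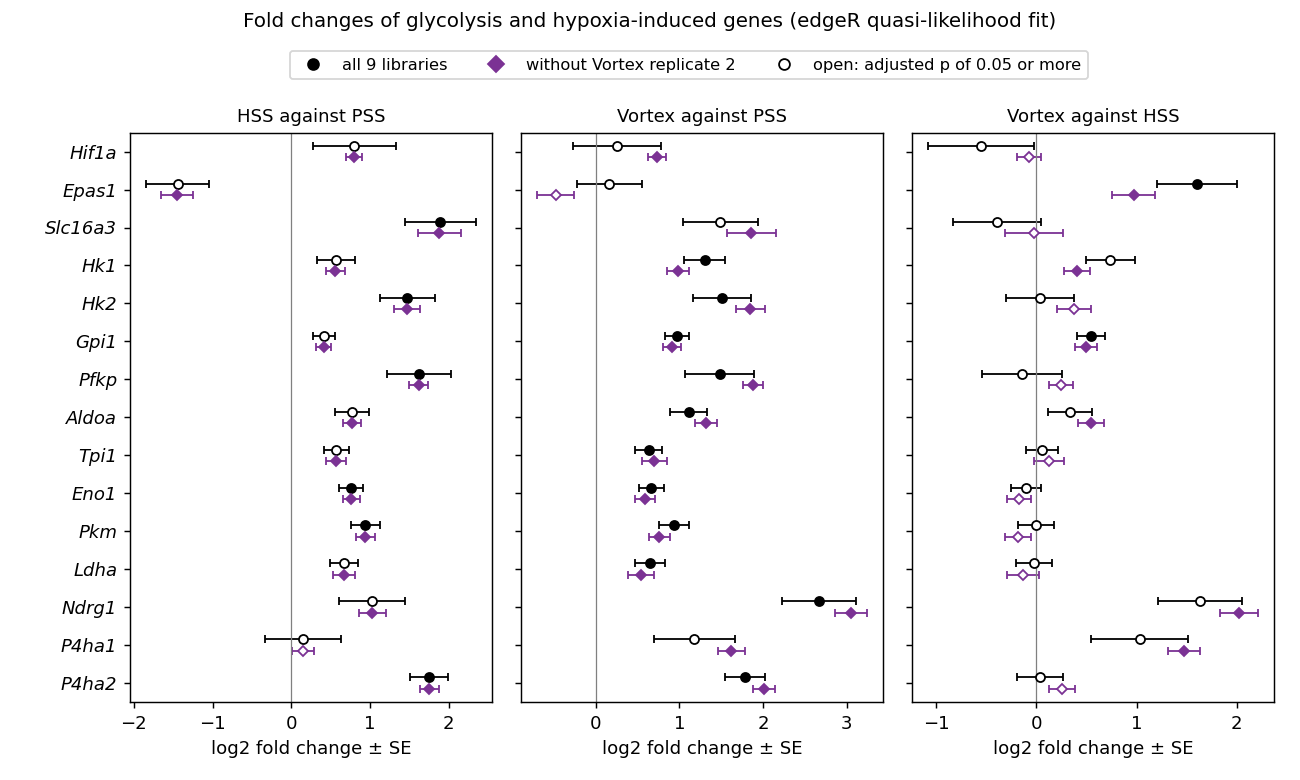
Log2 fold changes with standard errors for the 13 genes called in at least 1 comparison and for Hif1a and P4ha1, from all 9 libraries (black circles) and without Vortex replicate 2 (purple diamonds), with open symbols where the adjusted p was 0.05 or more. Leaving out Vortex replicate 2 barely moves the HSS against PSS values but shortens their error bars, as for Pfkp (1.62 ± 0.41 and 1.62 ± 0.12).

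Regulatory enzymes set the flow through the pathway. Pfkfb3, which makes the allosteric activator of phosphofructokinase and is known for its part in vessel sprouting, spanned 11.2 to 24.5 FPKM in Vortex, 15.3 to 16.5 in HSS and 5.82 to 18.8 in PSS. Pfkfb4, a related enzyme, spanned 1.28 to 2.97, 2.55 to 2.73 and 1.25 to 1.54 FPKM in the same groups. Pdk1, a kinase that holds pyruvate back from the mitochondrion, spanned 11.7 to 34.3, 20.8 to 23.1 and 20.8 to 22.4 FPKM. None of these 3 genes was called by edgeR with all libraries in any comparison. For Pfkfb4 the unadjusted p in HSS against PSS was 0.012 (0.93 ± 0.30, adjusted p = 0.0952), and DESeq2 called it higher (adjusted p = 0.0371). It passed without Vortex replicate 1 (0.0488) or 2 (0.0022). In Vortex against PSS, Pfkfb4 was at 0.81 ± 0.30 (adjusted p = 0.105), and at 1.08 ± 0.18 without Vortex replicate 2 (adjusted p = 0.00141). Pfkfb3 passed for Vortex against PSS without Vortex replicate 2 (0.98 ± 0.35, adjusted p = 0.0488).

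Outside glycolysis, P4ha1 and P4ha2 encode alpha subunits of collagen prolyl 4-hydroxylase and are HIF targets. P4ha2 had 16.7, 8.89 and 15.2 FPKM in Vortex, 14.7, 14 and 14.8 FPKM in HSS and 4.8, 4.45 and 3.99 FPKM in PSS. Every Vortex and HSS library was above every PSS library. P4ha2 rose 3.36-fold in HSS (log2 fold change 1.75 ± 0.24, adjusted p = 0.0041) and 3.46-fold in Vortex (1.79 ± 0.24, adjusted p = 0.00414). The HSS call held in all 21 alternatives, with adjusted p up to 0.0294, and the Vortex call in all but the fit of the 6 compared libraries (0.0514). P4ha1, the more abundant subunit, had 113, 21.1 and 95.9 FPKM in Vortex, 42.2, 40.1 and 41.1 FPKM in HSS and 36.2, 33.6 and 44 FPKM in PSS. HSS overlapped PSS (0.15 ± 0.48, adjusted p = 0.897), whereas Vortex replicates 1 and 3 were far above it and replicate 2 below it. With all libraries P4ha1 was at 1.18 ± 0.49 in Vortex against PSS (adjusted p = 0.141), and without Vortex replicate 2 it was at 1.62 ± 0.16 against PSS (adjusted p = 6.46e-05) and 1.47 ± 0.16 against HSS (adjusted p = 0.00039).

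Ndrg1, a stress-responsive gene induced by hypoxia, had the largest fold of the tested members between Vortex and PSS. Its levels were 24.4, 5.81 and 16.3 FPKM in Vortex, 5.36, 5.62 and 5.5 FPKM in HSS and 2.98, 2.88 and 2.4 FPKM in PSS. The groups did not overlap, although Vortex replicate 2 was close to HSS. Ndrg1 rose 6.36-fold in Vortex against PSS (log2 fold change 2.67 ± 0.44, adjusted p = 0.00711), and without Vortex replicate 2 it was at 3.05 ± 0.19 (adjusted p = 4.17e-06). In HSS against PSS it was at 1.03 ± 0.42 (adjusted p = 0.172, and 0.00154 without Vortex replicate 2). Vortex against HSS was at 1.63 ± 0.42 (adjusted p = 0.0504, and 0.000181 without Vortex replicate 2).

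The remaining HIF targets were not called with all libraries. Bnip3, which drives removal of mitochondria, spanned 1.48 to 15.2 FPKM in Vortex, 6.25 to 7.46 in HSS and 2.56 to 4.31 in PSS. Ddit4, an inhibitor of mTORC1, spanned 20 to 58.1, 26.8 to 32.9 and 27.5 to 34.5 FPKM, with its highest value in Vortex replicate 2. Kdm3a, a histone demethylase, spanned 7.61 to 22.2, 17 to 17.4 and 17.4 to 17.6 FPKM, and its lowest value was also in Vortex replicate 2. Mxi1, an antagonist of MYC, spanned 1.24 to 6.54, 2 to 2.38 and 2.99 to 3.9 FPKM. Ankrd37 stayed at or under 0.776 FPKM and Car9, a carbonic anhydrase that is a common mark of hypoxia in tumours, at or under 0.249 FPKM in every library. Without Vortex replicate 2, Bnip3 was higher in Vortex than in PSS (1.55 ± 0.40, adjusted p = 0.0137) and Mxi1 higher in Vortex than in HSS (1.27 ± 0.24, adjusted p = 0.00542). The edgeR fit of the 6 HSS and PSS libraries alone called Mxi1 lower (-0.64, adjusted p = 0.00415) and Bnip3 higher (0.86, adjusted p = 0.0129) in HSS.

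Vortex replicate 2 was also compared with its group gene by gene. For 20 of the 34 tested members, Vortex replicates 1 and 3 both lay above the PSS range in FPKM. Vortex replicate 2 was also above PSS for 10 of these, and not above it for the other 10, which were Hif1a, Arnt, Pfkp, Pfkfb3, Pfkfb4, Gapdh, Pgk1, Slc16a3, Bnip3 and P4ha1. Vortex replicate 2 was below both other Vortex libraries for 19 members, between them for 8 and above both for 7. The counts up to here were made for the members only. Without the share over all genes, they show nothing particular to the members. Counted alone, Vortex replicates 1, 2 and 3 were above the PSS range for 21, 17 and 31 members, and HSS replicates 1, 2 and 3 for 22, 23 and 21. For all rows with a mean of at least 1 FPKM the same shares were 30.6%, 40.2% and 32.2% in Vortex and 34.7%, 34.8% and 34.9% in HSS. Below the PSS range were 9, 12 and 2 members in Vortex replicates 1, 2 and 3 and 6, 6 and 5 in HSS. Of all such rows, 48.3%, 42.2% and 40.6% were below it in Vortex and 36.4%, 35.9% and 36.5% in HSS.

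Isozyme makeup compares levels per length within a library. In all 5 families the HSS shares did not overlap those of PSS, whereas the Vortex shares overlapped PSS in all but P4ha2. Between HSS and PSS, the FPKM ranges of 55.9% of all tested genes did not overlap either. The size of each share depends on the gene lengths used for the FPKM. Hk2 made up 69.8%, 35.2% and 73.4% of hexokinase FPKM in Vortex replicates 1, 2 and 3, 72%, 71.7% and 73.1% in HSS and 58.9%, 59.7% and 55.5% in PSS. The Pfkp share of phosphofructokinase FPKM was 22.5%, 5.23% and 16% in Vortex, 16.1%, 15.6% and 15.4% in HSS and 7.68%, 7% and 7.01% in PSS. P4ha2 took 12.9%, 29.7% and 13.7% of the summed P4ha1 and P4ha2 in Vortex, 25.9%, 25.9% and 26.5% in HSS and 11.7%, 11.7% and 8.31% in PSS. Hk2 and Pfkp therefore held a larger share in HSS and in Vortex replicates 1 and 3 than in PSS, and a smaller share in Vortex replicate 2 than in any PSS library. Between HSS and PSS the mean shares were 72.3% ± 0.724 and 58.0% ± 2.23 for Hk2, 15.7% ± 0.388 and 7.23% ± 0.39 for Pfkp, and 26.1% ± 0.324 and 10.6% ± 1.95 for P4ha2 (SD, n = 3 each, exact permutation p = 0.1 for each). The Aldoc share lay below PSS, with 0.541% ± 0.0585 of aldolase FPKM in HSS and 1.48% ± 0.134 in PSS, also without overlap. Over the 15 comparisons of 5 families, the smallest p this design allows is 0.1, so none could pass 0.05.

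**Figure D4:**
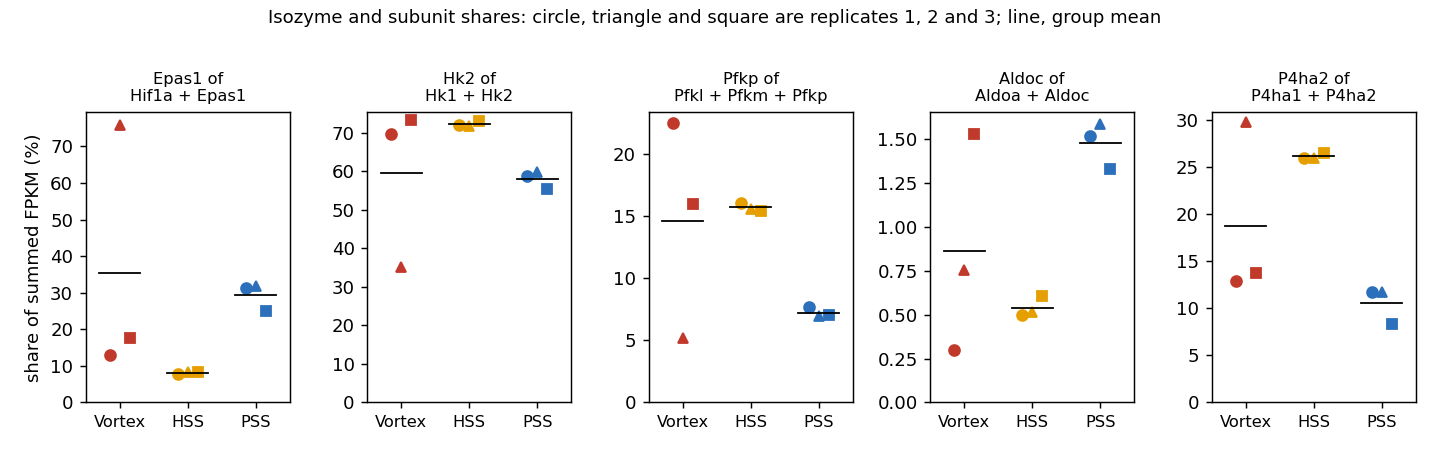
Share of 1 gene in the summed deposited FPKM of its family, in percent, for each library of Vortex, HSS and PSS, with the group mean as a line. HSS libraries coincide within each family and do not overlap PSS, and Vortex replicate 2 (triangle) lies opposite to Vortex replicates 1 and 3 for Epas1, Hk2 and Pfkp.

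Other genes of the same pathways were read from lists chosen by function. Their counts are to be read against the 7.87%, 13.4% and 7.04% of all tested genes called in HSS against PSS, Vortex against PSS and Vortex against HSS, or 29.1%, 36.3% and 23.9% without Vortex replicate 2. At an unadjusted p under 0.05 there were 3693, 4706 and 4236 of all 15774 genes in the same order. Of 15695 genes, DESeq2 called 1247 higher and 1209 lower, 2023 and 1466, and 1706 and 994. Of 29 tested members in a list of 30 further hypoxia-induced genes, 2 rose in HSS and 0 fell, with 11 at an unadjusted p under 0.05 and 5 higher and 1 lower by DESeq2. These were Gys1, glycogen synthase (1.41 ± 0.24, adjusted p = 0.0107), and Fam162a, a mitochondrial protein (1.86 ± 0.47, adjusted p = 0.0455). In Vortex against PSS, 7 rose and 1 fell. Pgf, placental growth factor, was at 2.29 ± 0.36 (adjusted p = 0.00618) and Plod1, a lysyl hydroxylase of collagen, at 1.06 ± 0.17 (adjusted p = 0.0065). The main glucose transporter Slc2a1, named after its values were seen, had 138, 37.3 and 90.8 FPKM in Vortex, 39.1 to 40.4 in HSS and 19.7 to 26.5 in PSS, a log2 fold change of 2.07 in Vortex against PSS (adjusted p = 0.0116). Against HSS, 2 rose and 1 fell in Vortex. Tfrc, the transferrin receptor, fell, at -1.23 ± 0.23 (adjusted p = 0.0191), and Adm, the vasodilator adrenomedullin, rose by 1.44 ± 0.36 (adjusted p = 0.0467). The counts without Vortex replicate 2 were 15 higher and 1 lower in HSS against PSS, 16 and 1 in Vortex against PSS, and 10 and 1 in Vortex against HSS. The list's median log2 fold change was 0.53 in HSS and 0.77 in Vortex against PSS, and 0.10 between Vortex and HSS.

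The 12 further parts of the oxygen-sensing machinery, such as Vhl, the subunit that recognises hydroxylated HIF, showed 0 calls in each comparison by edgeR. At an unadjusted p under 0.05 there was 1 in HSS against PSS, 2 in Vortex against PSS and 0 in Vortex against HSS, and DESeq2 called 0, 1 and 0. The smallest p-values were those of Ep300 (0.60 ± 0.24, adjusted p = 0.168) and Elob (-0.53 ± 0.24, adjusted p = 0.217) in HSS, and of Arnt2 (1.65 ± 0.51, adjusted p = 0.0602) and Cul2 (-0.59 ± 0.24, adjusted p = 0.135) in Vortex against PSS. Between Vortex and HSS they were those of Arnt2 (1.03 ± 0.49, adjusted p = 0.22) and Vhl (0.39 ± 0.19, adjusted p = 0.222). Leaving out Vortex replicate 2 gave 1 gene higher in HSS against PSS and 1 in Vortex against PSS. The median of the list lay at 0.02 in HSS and 0.07 in Vortex against PSS.

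Among 14 tested genes of a list of 20 other glycolytic enzymes and transporters, 2 rose and 1 fell in HSS. Slc16a1, another monocarboxylate transporter, rose by 2.01 ± 0.42 (adjusted p = 0.0214) and Bpgm, which diverts a glycolytic intermediate to 2,3-bisphosphoglycerate, fell, at -1.31 ± 0.28 (adjusted p = 0.0248). In Vortex against PSS 2 rose and 0 fell, Pgm1 (1.15 ± 0.24, adjusted p = 0.0145) and Pgm2 (0.86 ± 0.20, adjusted p = 0.0235), which link glycogen and pentose sugars to glycolysis. At an unadjusted p under 0.05 there were 7, and DESeq2 called 4 higher and 1 lower. Against HSS, Pgm2 rose in Vortex (0.84 ± 0.20, adjusted p = 0.0381), and Eno3, the muscle enolase, was at -0.76 ± 0.21 (adjusted p = 0.0593). HSS had 4 higher and 1 lower against PSS once Vortex replicate 2 was omitted, and Vortex 5 higher and 2 lower. Vortex against HSS then had 3 higher and 2 lower, and the list's median turned to -0.06, against 0.14 with all libraries.

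The pentose phosphate pathway, which branches off after hexokinase and yields NADPH, had 1 of 7 genes higher in HSS, 3 higher in Vortex against PSS and 1 higher in Vortex against HSS. In HSS this was G6pdx, the entry enzyme (0.86 ± 0.20, adjusted p = 0.0335), with Rpia next (0.77 ± 0.23, adjusted p = 0.0802). In Vortex, Taldo1 and Tkt, the enzymes that return carbon to glycolysis, were at 0.81 ± 0.17 and 0.65 ± 0.16 against PSS (adjusted p = 0.015 and 0.0301) and at 0.70 ± 0.17 and 0.58 ± 0.16 against HSS (adjusted p = 0.0398 and 0.059). When Vortex replicate 2 was left out, 3 were higher in HSS and 4 in Vortex against PSS. Vortex against HSS then had 2 higher and 3 lower, and the median of these 7 genes turned to -0.28, against 0.16 with all libraries. Of 26 genes for pyruvate entry and the citric acid cycle, 0 were called in HSS, with 4 at an unadjusted p under 0.05 and 2 higher and 1 lower by DESeq2. The smallest p-values were those of Pdp1, a phosphatase that activates pyruvate dehydrogenase (-0.71 ± 0.21, adjusted p = 0.0718), and Dlat, a subunit of that complex (0.54 ± 0.16, adjusted p = 0.0782). In Vortex against PSS 5 rose and 1 fell, led by citrate synthase Cs (0.73 ± 0.15, adjusted p = 0.0129) and Dlat (0.74 ± 0.16, adjusted p = 0.0191). Vortex against HSS gave 0 calls, with 5 at an unadjusted p under 0.05 and 2 higher by DESeq2, and the smallest p-value was that of Sdhc, a subunit of succinate dehydrogenase (0.47 ± 0.16, adjusted p = 0.0997). Of the 26, without Vortex replicate 2, 5 were higher and 2 lower in HSS against PSS, 7 higher and 2 lower in Vortex against PSS, and 2 higher in Vortex against HSS.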

How the data were processed

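Polyadenylated RNA of 9 bEnd.3 libraries was prepared with a NEBNext Ultra kit, per the labels' protocols, which speak of mixed RNA. Per the submitters' processing notes, HISAT2, HTSeq 0.13.5 and build GRCm39 were used, while the sources used here name no strand setting. The authors deposited whole-number counts per gene without normalization and FPKM. In 100% of genes the FPKM follow from the counts, column totals and 1 length in whole bases (relative tolerance 1e-06).

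Counts were fitted in R 4.3.3 with edgeR 4.0.16 (filterByExpr, TMM, robust quasi-likelihood model, 1 mean per group, all 9 libraries). Each standard error is the absolute log2 fold change over the root of its F statistic. Calls used a Benjamini-Hochberg adjusted p under 0.05. The members and lists were chosen with earlier results of these data known. Each member called, Hif1a, Epas1 and the isozymes are given in every library, other members by range, and lists by counts and by the 2 smallest p-values per comparison, except for 1 gene that is not reported here. Same-group libraries differed beyond sampling noise. The procedure was tested on simulated data. Alternatives used DESeq2 1.42.0 and limma 3.58.1 on log2 FPKM with pseudocounts 1 and 0.1, and GC content from GENCODE M21. Removing the GC trend with Vortex replicate 2 left out was added after seeing the data. Promoter sequences were matched by symbol, for 31 of 34.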

Additional observations from a re-analysis of the deposited data

Results flagged for a closer look

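Epas1 was flagged because its change relative to PSS differed between Vortex and HSS, by 1.60 on the log2 scale in the test of Vortex against HSS (adjusted p = 0.0469 by edgeR, 3 libraries each, higher in 3 of 3 Vortex libraries than in every HSS library). It was 0.97 without Vortex replicate 2 (adjusted p = 0.0112), and the Epas1 call ended without any 1 PSS library (adjusted p = 0.0649 to 0.0913), any 1 HSS library (0.17 to 0.183) or Vortex replicate 3 (0.0593). Gpi1 was flagged for the same reason, with a difference of 0.55 (adjusted p = 0.0473, higher in 3 of 3 Vortex libraries). It was 0.50 without Vortex replicate 2 (adjusted p = 0.0106), and the Gpi1 call ended without PSS replicate 1 or 2 (0.105 and 0.0779), any 1 HSS library (0.194 to 0.205) or Vortex replicate 3 (0.0718). The edgeR fit of the 6 Vortex and HSS libraries alone called neither (adjusted p = 0.125 for Epas1 and 0.0974 for Gpi1). These 2 calls were 5.88% of the tested members, against 7.04% of all tested genes called. Groups of 3 libraries are too small for the check of single outlying libraries.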

How the results depend on the processing

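P4ha2 in HSS against PSS kept its call in every alternative, and in Vortex against PSS it, Ndrg1 and Gpi1 lost theirs only in the fit of the 6 compared libraries. For HSS against PSS, 6 members were called, against 3 with the replicate block and 13 by DESeq2. There were 22 with only the 6 compared libraries (19 higher and 3 lower). With the GC trend removed and Vortex replicate 2 left out, an alternative added after seeing the data, there were 16 (15 higher and 1 lower). Leaving out 1 library gave 1 to 17. The members' median of 0.49 became 0.57 with at least 1 CPM in 3 libraries, 0.39 with the GC trend removed (0.39 with the block as well, and 0.39 without Vortex replicate 2), 0.54 with the 6 compared libraries and 0.44 to 0.55 without 1 library. Of all genes 1242 were called, against 772 with the block, 2456 by DESeq2, 6233 with the 6 compared libraries, 4871 in the added alternative and 285 to 4730 without 1 library. For Vortex against PSS the 11 members called became 7 with library totals, 6 with the block, 5 with the GC trend removed, 4 with both, 6 by limma with either pseudocount, 0 with the 6 compared libraries, 23 in the added alternative and 3 to 20 without 1 library. The 2107 genes became 1258 with the block, 611 with block and GC, 3489 by DESeq2, 74 with the 6 compared libraries, 6108 in the added alternative and 519 to 5888 without 1 library. There, Ddit4 (-0.58) and Epas1 (-0.58) turned to lower in the added alternative, and the cause was not tested. For Vortex against HSS the 2 members became 0 with library totals, the block, block and GC, limma and the 6 compared libraries, 1 with the GC trend removed, 4 by DESeq2, 9 in the added alternative and 0 to 9 without 1 library. The members' median of 0.05 turned to -0.08 with library totals, -0.02 with the GC trend removed, -0.07 with block and GC, and -0.1 and -0.13 by limma with pseudocounts 1 and 0.1. The 1111 genes became 713 with no filter, 357 with the block, 465 with block and GC, 2700 by DESeq2, 66 with the 6 compared libraries, 4325 in the added alternative and 25 to 3887 without 1 library. Replicate numbers are shared only as numbers: deviations of same-numbered libraries correlated at -0.12 to 0.12, and 5 of 9 libraries correlated best with their own number. The biological coefficient of variation of 0.35, with 3 libraries a group, limits what can be called, and Car9 and Ankrd37 are limited by their low counts.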
